A study of Homo sapiens with 2 samples.

Results

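The genes described here are 43 genes of DNA double-strand break repair and of the Fanconi anaemia pathway, chosen by name, out of 28615 gene symbols on 31798 rows of 1 deposited expression table. All 43 were found, each on 1 row. The table compares 2 RNA libraries of HCT116, an established and mismatch repair-deficient human colorectal cancer cell line. One library is labelled as an SRD5A1 knockdown and carries the title tag Dox, and the other is labelled control and carries the tag KD. The labels leave both tags unexplained, and they name no knockdown construct, treatment, time or clone. Each group has 1 library, so there is no replicate, no test and no p-value, and every difference below describes these 2 libraries and not the spread between cultures.

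A double-strand break is repaired by homologous recombination, which copies an intact sister chromatid, or by non-homologous end joining, which ligates the broken ends. The MRN complex detects and trims the ends, the kinases ATM and ATR signal the damage, and the BRCA proteins prepare the trimmed ends for strand exchange, in which they invade the intact copy. The Fanconi proteins act on cross-links between the DNA strands: a core complex of several subunits attaches ubiquitin to FANCD2 and FANCI, which then recruit nucleases and the recombination proteins. Many of these genes are transcribed most strongly around DNA replication.

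The knockdown library held 54740670 counts and the control library 41814981. SRD5A1, the gene named in the label, was at 6.25 FPKM in the knockdown and 10.8 FPKM in the control library, a ratio of library-scaled counts of 0.581 (0.554 to 0.609). Genes of the mitochondrial genome made up 12.8% of all counts in the knockdown library, against 18.3% in the control. Of 7 colorectal epithelial markers, 5 were at 1 FPKM or more in the knockdown library and 4 in the control, with KRT8, KRT18, EPCAM and CDH1 in both. CDX2 was at 7.00 FPKM in the knockdown and 0.767 FPKM in the control library, VIL1 was at 0.00832 FPKM in the knockdown library against 0 in the control, and LGALS4 was at 0 in both. The epithelial markers summed to 815 FPKM in the knockdown and 381 FPKM in the control library. In the knockdown library the summed level was 0.0716 FPKM over 5 leukocyte markers, 0.192 FPKM over 4 endothelial markers and 2.59 FPKM over 5 fibroblast markers. In the control library these sums were 0.143, 0.117 and 4.14 FPKM, and COL1A1 made up most of the fibroblast sum in both. Because the extraction protocol speaks of an adipose type, adipocyte markers were also looked up: PLIN1 and CIDEC were at most at 0.319 FPKM, and ADIPOQ, LEP and FABP4 had no row. In bulk RNA, fewer expressing cells and less RNA per cell cannot be told apart.

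Most of the repair genes were weakly expressed in these libraries. FPKM divides the fragments of a gene by its transcript length and by the library's total, so that genes can be compared per length. XRCC6, the Ku70 subunit that binds broken ends, was far above the rest at 162 FPKM in the knockdown and 134 FPKM in the control library. It made up most of the summed level of the 43 genes, which was 304 FPKM in the knockdown and 222 FPKM in the control library. At a mean of both libraries, 7 genes were at 5 FPKM or more, 12 between 1 and 5, 18 between 0.1 and 1, and 6 below 0.1. The last were ATM, ATR, BRCA2, BRIP1, FANCB and FANCM. Thus 19 of 43 genes reached the mean of 1 FPKM used here to call a gene expressed, where 35.4% of all symbols and 52.2% of protein-coding genes did. Closest to that threshold were FANCI (0.887) and FANCC (0.972) below it and RAD52 (1.45) and RAD51C (1.496) above it. ATRIP and FANCF passed only through the knockdown library, so counts over the expressed genes are given as descriptions.

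**Figure D1:**
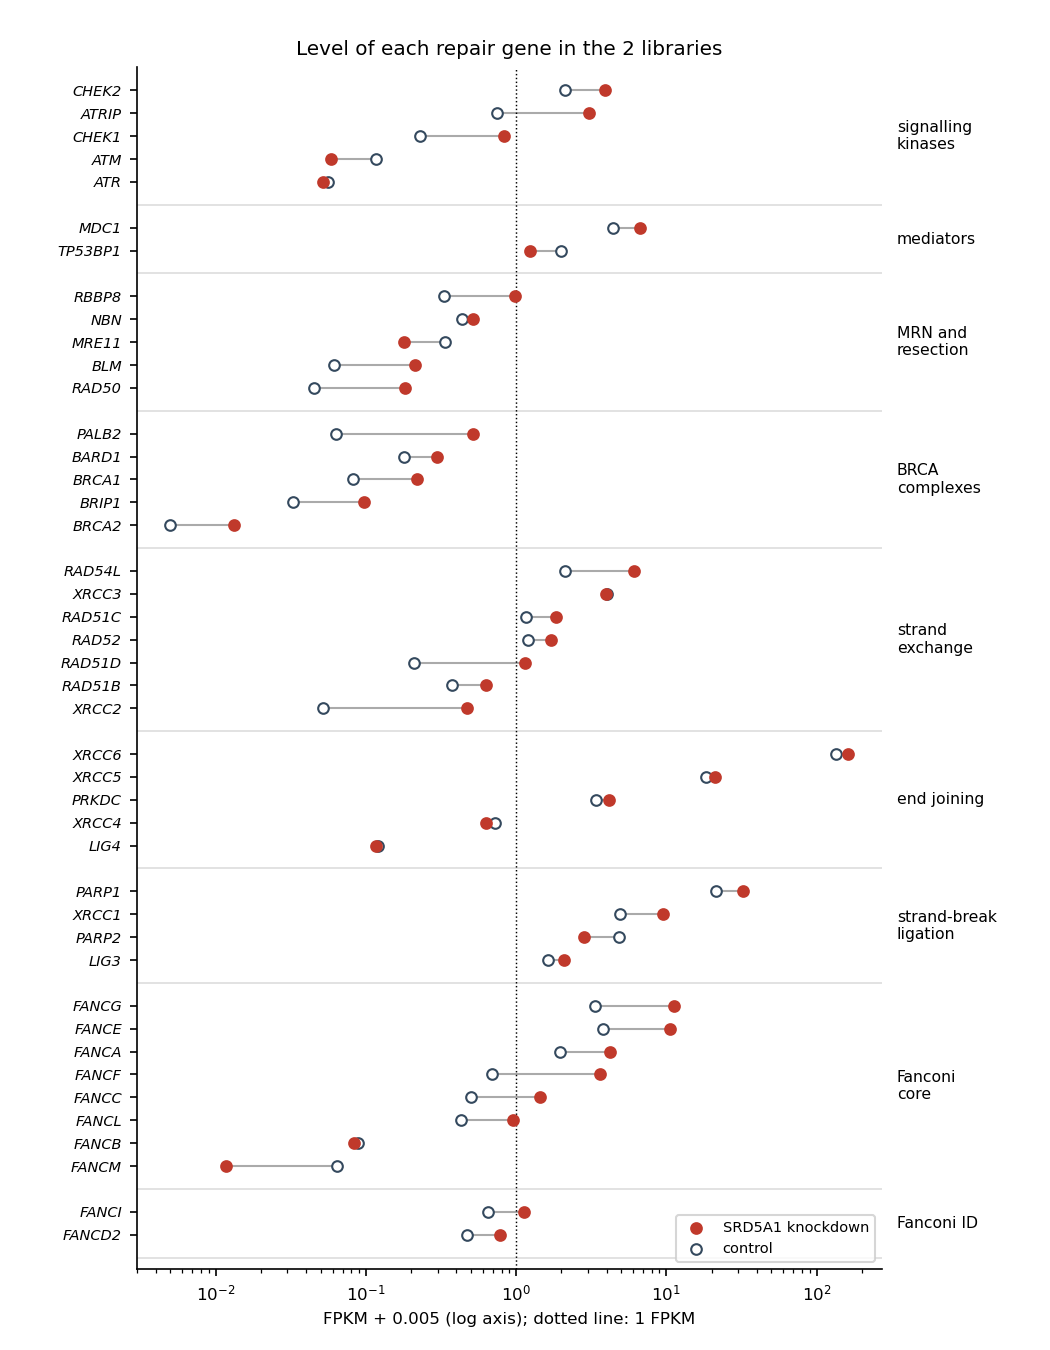
FPKM of each of the 43 genes in the SRD5A1 knockdown library (filled) and the control library (open), by role, on a log axis with 0.005 added so that BRCA2, at 0 in the control library, can be drawn. XRCC6 lies at 162 and 134 FPKM and BRCA2 at 0.00818 and 0 FPKM, and in most roles the filled points lie to the right of the open ones.

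Since a difference in log2(FPKM + 1) shrinks towards 0 for weak genes, all members were compared by the ratio of CPM (counts scaled to 1000000 per library), knockdown over control, with an exact Clopper-Pearson 95% interval that covers counting error only. Of the 42 members with at least 20 counts over both libraries, 17 (40.5%) had a ratio of 2 or more, where 28.9% of the 17119 genes of that depth did, and 2 had a ratio of 0.5 or less, where 15.9% of those genes did. The median ratio was 1.66 over these members and 1.21 over all genes of that depth. The interval lay above 1 for 31 members, below 1 for 5 (ATM, TP53BP1, MRE11, PARP2 and FANCM) and held 1 for 6. Over all genes of that depth it lay above 1 in 51.1% and below 1 in 31.3%. Against the median of all genes, 27 members lay above and 8 below (those 5 with XRCC3, XRCC4 and XRCC5), where 42.1% and 40.1% of all genes did. BRCA2 was left out with 8 counts in the knockdown library against 0 in the control. Other ways of scaling the libraries set the median ratio of all genes of that depth lower, down to 0.919 with the upper quartile set equal. Of the 17 ratios, 15 were at 2 or more under each of the 5 alternatives tried for the ratio (4 other scalings, and a trend on GC content and length removed). FANCA and FANCL, at 2.13 and 2.15, were the exceptions. RAD50 is 1 of the 15, but its ratio was 1.74 (1.25 to 2.44) with the counts of an overlapping gene on the same strand added. The ratios of 9 members changed their side of 1 under at least 1 alternative: NBN, XRCC5, XRCC6, PRKDC and LIG3 with other scalings, and ATR, XRCC4, LIG4 and FANCB with the trend removed.

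**Figure D2:**
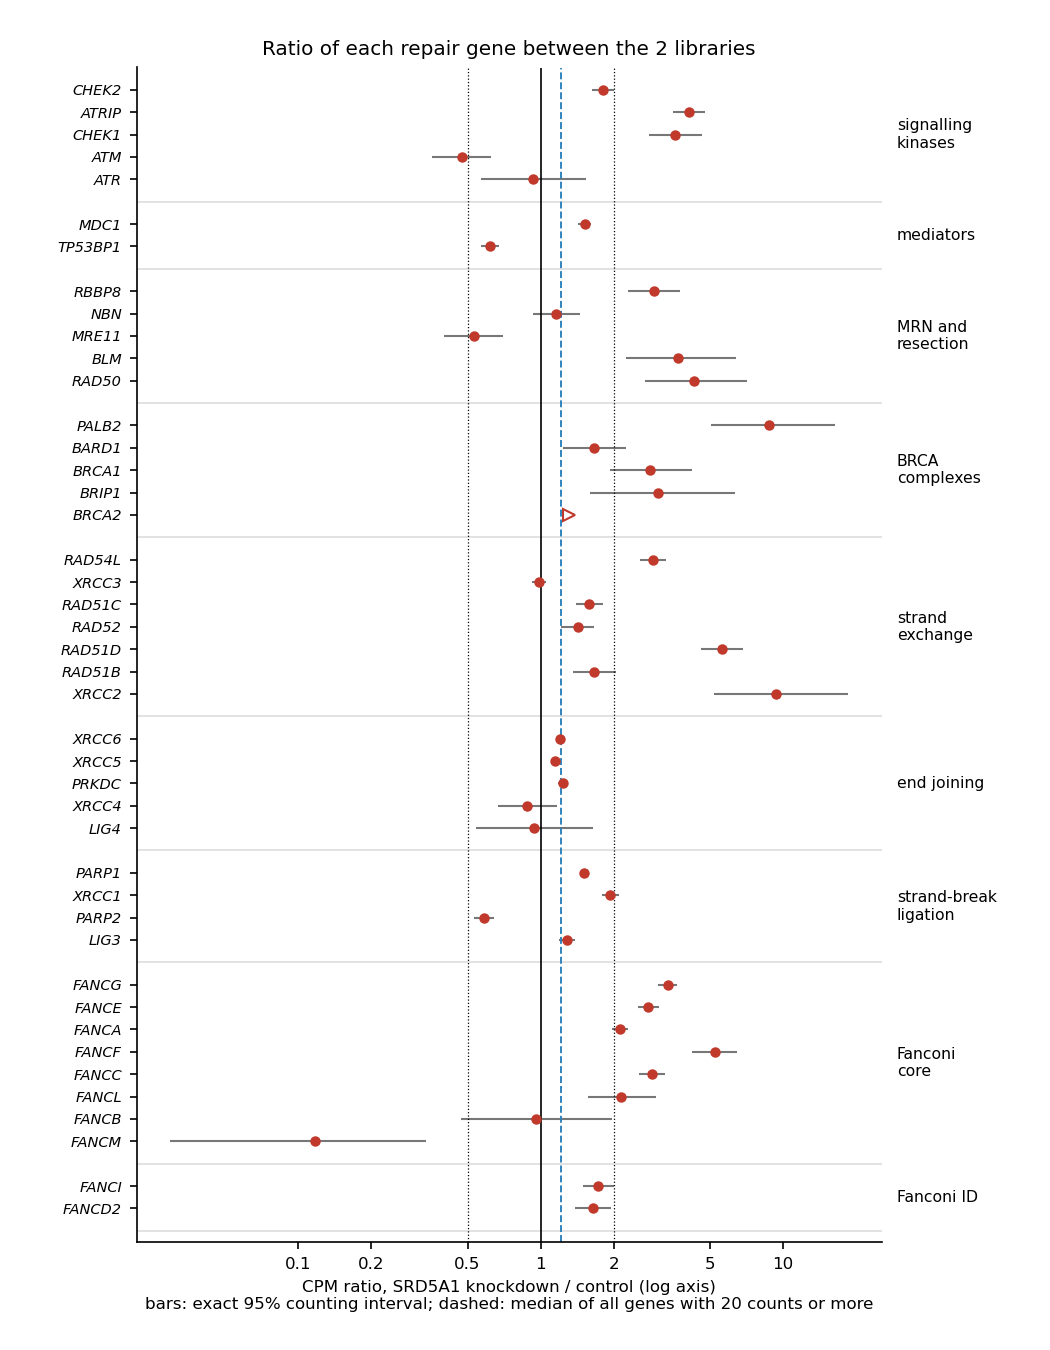
CPM ratio of each repair gene, SRD5A1 knockdown over control, on a log axis with exact 95% counting intervals; dotted lines mark 0.5 and 2 and the dashed line the median of all genes, 1.21. PALB2 (8.73) and XRCC2 (9.36) lie furthest to the right and FANCM (0.118) furthest to the left, and the open triangle for BRCA2, at 0 counts in the control library, stands at the lower end of its exact interval, 1.304.

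The Fanconi core complex, the ubiquitin ligase of the pathway, held the highest differences among the expressed genes. The 3 expressed genes with the largest differences in log2(FPKM + 1) all belong to it, and the 250 bases before their annotated starts are shown because these genes were higher together. The sequences are from RefSeq (GRCh38.p14), with CCAAT and the GC box GGGCGG, on either strand, in capitals. They come from chr9:35079943-35080192 (minus strand) for FANCG, chr11:22625824-22626073 (minus strand) for FANCF and chr6:35452088-35452337 (plus strand) for FANCE.
FANCG: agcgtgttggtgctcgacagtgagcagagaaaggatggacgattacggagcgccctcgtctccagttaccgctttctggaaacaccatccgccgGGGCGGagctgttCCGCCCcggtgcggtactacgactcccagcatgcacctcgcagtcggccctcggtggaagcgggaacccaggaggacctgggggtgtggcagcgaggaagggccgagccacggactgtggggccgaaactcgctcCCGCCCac
FANCF: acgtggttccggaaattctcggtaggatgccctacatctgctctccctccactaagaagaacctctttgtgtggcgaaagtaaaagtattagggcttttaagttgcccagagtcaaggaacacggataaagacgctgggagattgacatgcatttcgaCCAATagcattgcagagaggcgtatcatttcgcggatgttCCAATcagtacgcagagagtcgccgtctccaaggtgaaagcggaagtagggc
FANCE: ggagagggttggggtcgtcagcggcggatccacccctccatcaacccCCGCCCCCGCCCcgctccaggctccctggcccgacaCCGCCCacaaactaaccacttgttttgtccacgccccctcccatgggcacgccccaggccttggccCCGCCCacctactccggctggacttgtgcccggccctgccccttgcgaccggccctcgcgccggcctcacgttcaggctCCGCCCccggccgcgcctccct
The FANCE and FANCG windows hold 5 and 3 GC boxes and no CCAAT, and the FANCF window holds 2 CCAAT and no GC box, so neither motif is in all 3.

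FANCG (ENSG00000221829, chromosome 9, 35073835 to 35080016), a subunit that binds FANCA, was at 11.3 FPKM in the knockdown and 3.36 FPKM in the control library, a difference of 1.49 and a CPM ratio of 3.34 (3.06 to 3.65). FANCF (ENSG00000183161, chromosome 11, 22622890 to 22625841), an adaptor of the complex, was at 3.61 FPKM in the knockdown and 0.686 FPKM in the control library, a difference of 1.45 and a ratio of 5.21 (4.23 to 6.48). FANCE (ENSG00000112039, chromosome 6, 35452356 to 35467103), the subunit that contacts FANCD2, was at 10.5 FPKM in the knockdown and 3.78 FPKM in the control library, a difference of 1.27 and a ratio of 2.77 (2.51 to 3.07). In all 3 the knockdown library was higher by 2-fold or more also on the log2(FPKM + 1) scale, where a 2-fold call means a difference of 1 or more and 20.9% of 10143 expressed genes were called. FANCF consists of 1 exon, and among 189 expressed protein-coding genes whose principal transcript has 1 exon (histone genes left out) 52.9% were at least 2-fold higher; the part of that class in the value of FANCF was not tested.

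FANCA, which binds FANCG, was at 4.19 FPKM in the knockdown and 1.96 FPKM in the control library, a ratio of 2.13 (1.97 to 2.29). FANCC, which joins FANCE and FANCF in a subcomplex, was at 1.45 FPKM in the knockdown and 0.499 FPKM in the control library, a ratio of 2.87 (2.54 to 3.26). FANCL, the ring-finger ligase subunit, was at 0.953 FPKM in the knockdown and 0.425 FPKM in the control library, a ratio of 2.15 (1.57 to 2.99). These were also higher in the knockdown library, so that 6 of the 8 core genes had a ratio of 2 or more, where 28.9% of all genes did. FANCA and FANCL were below 2 under other scalings, at 1.61 and 1.63 at the lowest. The exceptions were the weakest. FANCB, on chromosome X, had 20 counts in the knockdown library against 16 counts in the control, a ratio of 0.955 whose interval (0.470 to 1.97) holds 1. FANCM (ENSG00000187790, chromosome 14, 45135930 to 45200890), the translocase that anchors the complex on DNA, had 4 counts in the knockdown library against 26 counts in the control, a ratio of 0.118 (0.0298 to 0.339), so it ran against the other core genes. FANCA shares 23.6% of its exon bases with ZNF276 on the opposite strand, and as the use of strand is not given, reads of the 2 genes may be mixed. The same holds for FANCL, which shares 18.7% of its exon bases with VRK2 on the opposite strand.

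The substrates of the core complex differed less. FANCD2 was at 0.776 FPKM in the knockdown and 0.470 FPKM in the control library, a ratio of 1.64 (1.38 to 1.95). FANCI was at 1.13 FPKM in the knockdown and 0.646 FPKM in the control library, a ratio of 1.73 (1.49 to 2.01). The 2 intervals overlap, and the level of FANCI relative to FANCD2 was 1.46 in the knockdown library, against 1.37 in the control. FANCI shares 5.90% of its exon bases with POLG on the opposite strand, which had 3088 counts in the knockdown library against 3529 counts in the control.

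The BRCA proteins act on resected ends before strand exchange, and their 5 genes were all below 1 FPKM in both libraries. PALB2 (ENSG00000083093, chromosome 16, 23603160 to 23641285), which links BRCA1 to BRCA2, was at 0.512 FPKM (160 counts) in the knockdown and 0.0584 FPKM (14 counts) in the control library, a ratio of 8.73 (5.05 to 16.3). BRCA1 (ENSG00000012048, chromosome 17, 43044295 to 43170245), a ubiquitin ligase that promotes resection, was at 0.214 FPKM (133 counts) in the knockdown and 0.0766 FPKM (36 counts) in the control library, a ratio of 2.82 (1.94 to 4.20). BARD1, its ring-finger partner, was at 0.293 FPKM in the knockdown and 0.174 FPKM in the control library, a ratio of 1.66 (1.24 to 2.26). BRCA1 thus lay below BARD1 in both libraries, at 0.730 times its level in the knockdown library, against 0.440 times in the control. BRIP1, a helicase bound to BRCA1, had 48 counts in the knockdown library against 12 counts in the control, a ratio of 3.06 (1.60 to 6.32). BRCA2 (ENSG00000139618, chromosome 13, 32315474 to 32400266), which acts at the start of strand exchange, had 8 counts in the knockdown library against 0 counts in the control. The exact 95% interval of its ratio has no upper end and begins at 1.304. The directions are alike in all 5, at depths that leave their sizes loosely known.
BRCA1 has 2 annotated starts in RefSeq, and the 250 bases before the start of its principal transcript (chr17:43125365-43125614, minus strand), shown, as is that of ATM, by choice of the gene and not for its values, hold 1 CCAAT and no GC box.
BRCA1: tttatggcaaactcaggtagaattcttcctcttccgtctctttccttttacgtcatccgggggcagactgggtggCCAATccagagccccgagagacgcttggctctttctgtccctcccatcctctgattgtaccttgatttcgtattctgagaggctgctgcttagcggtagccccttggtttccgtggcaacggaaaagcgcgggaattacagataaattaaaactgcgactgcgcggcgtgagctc

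The strand-exchange genes RAD51B, RAD51C, RAD51D, XRCC2 and XRCC3 encode related proteins that work in small complexes, and they did not move as a block. XRCC2 (ENSG00000196584, chromosome 7, 152644776 to 152676141) was at 0.464 FPKM (147 counts) in the knockdown and 0.0468 FPKM (12 counts) in the control library, a ratio of 9.36 (5.20 to 18.5). RAD51D (ENSG00000185379, chromosome 17, 35092208 to 35121522), which pairs with XRCC2, was at 1.14 FPKM (846 counts) in the knockdown and 0.203 FPKM (116 counts) in the control library, a ratio of 5.57 (4.58 to 6.82). These 2 were several-fold higher in the knockdown library. RAD51B was at 0.622 FPKM in the knockdown and 0.370 FPKM in the control library, a ratio of 1.66 (1.36 to 2.04). RAD51C was at 1.84 FPKM in the knockdown and 1.15 FPKM in the control library, a ratio of 1.59 (1.40 to 1.81). The 2 intervals overlap and lie below those of XRCC2 and RAD51D.

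XRCC3, which pairs with RAD51C, was at 3.98 FPKM in the knockdown and 4.03 FPKM in the control library, a ratio of 0.986 (0.922 to 1.05), and had the highest level of the 5. Of its exon bases, 76.7% overlap KLC1 on the opposite strand, so its value is uncertain. It is 1 of the 3 expressed members with the lowest differences (with PARP2 and TP53BP1), whose windows are shown for that reason; the XRCC3 window (chr14:103715452-103715701, minus strand) holds 5 CCAAT and 3 GC boxes, the most CCAAT of the 8 windows shown.
XRCC3: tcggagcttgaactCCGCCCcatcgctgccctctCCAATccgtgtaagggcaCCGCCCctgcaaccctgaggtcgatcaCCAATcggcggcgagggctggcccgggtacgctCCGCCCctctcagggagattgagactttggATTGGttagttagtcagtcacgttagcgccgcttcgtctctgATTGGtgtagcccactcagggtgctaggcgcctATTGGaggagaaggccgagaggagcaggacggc
Of the other strand-exchange genes, RAD54L (ENSG00000085999, chromosome 1, 46247688 to 46278473), a DNA-dependent motor of strand exchange, was at 6.07 FPKM in the knockdown and 2.10 FPKM in the control library, a difference of 1.19 and a ratio of 2.90 (2.57 to 3.28). RAD52, an annealing protein, was at 1.71 FPKM in the knockdown and 1.20 FPKM in the control library, a ratio of 1.42 (1.22 to 1.66). RAD54L shares 25.1% of its exon bases with LRRC41 on the opposite strand, which was itself higher in the knockdown library (8.41 FPKM, against 4.31 FPKM in the control).

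The MRN complex and the resection genes were all below 1 FPKM and went different ways. RBBP8, the resection factor CtIP, was at 0.973 FPKM in the knockdown and 0.328 FPKM in the control library, a ratio of 2.93 (2.30 to 3.76). BLM, a helicase of long-range resection, had 92 counts in the knockdown library against 19 counts in the control, a ratio of 3.70 (2.24 to 6.42). RAD50, the MRN subunit that tethers ends, had 123 counts in the knockdown library against 22 counts in the control, a ratio of 4.27 (2.70 to 7.06). Of the exon bases of RAD50, 79.7% also belong to AC116366 on the same strand, which had 0 counts in the knockdown library against 32 counts in the control. With both summed the ratio was 1.74 (1.25 to 2.44), so the size of the RAD50 ratio depends on how reads were divided. MRE11, the nuclease of the complex, had 89 counts in the knockdown library against 128 counts in the control, a ratio of 0.531 (0.401 to 0.702). NBN, the subunit that binds ATM, had 207 counts in the knockdown library against 136 counts in the control, a ratio of 1.16 (0.932 to 1.45). The 3 subunits of MRN thus had a higher, a lower and an undecided ratio.

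Among the signalling genes the kinases that sense damage were at very low levels, and the checkpoint kinases were higher in the knockdown library. ATM (ENSG00000149311, chromosome 11, 108222484 to 108369102) was at 0.0539 FPKM (85 counts) in the knockdown and 0.112 FPKM (137 counts) in the control library, a ratio of 0.474 (0.357 to 0.626). With the trend on GC content and length removed, the ATM ratio was 0.720. ATR (ENSG00000175054, chromosome 3, 142449235 to 142578733) was at 0.0471 FPKM (39 counts) in the knockdown and 0.0509 FPKM (32 counts) in the control library, a ratio of 0.931 (0.568 to 1.54) whose interval holds 1. ATRIP (ENSG00000164053, chromosome 3, 48446710 to 48465716), the partner that brings ATR to single-stranded DNA, was at 3.05 FPKM in the knockdown and 0.746 FPKM in the control library, a difference of 1.21 and a ratio of 4.08 (3.51 to 4.76). ATRIP was therefore at 64.7 times the level of ATR in the knockdown and 14.7 times in the control library. ATRIP shares 27.9% of its exon bases with TREX1 on the same strand, and the ratio of both summed was 3.12 (2.74 to 3.57). CHEK1, the kinase downstream of ATR, was at 0.828 FPKM in the knockdown and 0.226 FPKM in the control library, a ratio of 3.58 (2.79 to 4.64). CHEK2, the kinase downstream of ATM, was at 3.88 FPKM in the knockdown and 2.13 FPKM in the control library, a ratio of 1.81 (1.62 to 2.01).
ATM has 2 annotated starts, and the window before the start of its principal transcript (chr11:108222817-108223066, plus strand) holds 1 CCAAT and no GC box.
ATM: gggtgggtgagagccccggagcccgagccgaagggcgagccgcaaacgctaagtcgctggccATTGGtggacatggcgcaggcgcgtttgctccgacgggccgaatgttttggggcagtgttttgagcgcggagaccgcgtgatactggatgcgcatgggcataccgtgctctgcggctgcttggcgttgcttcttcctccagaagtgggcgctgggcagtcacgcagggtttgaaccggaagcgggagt

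The mediators that gather at damaged chromatin went opposite ways. MDC1, the scaffold that reads phosphorylated histone H2AX, was at 6.71 FPKM in the knockdown and 4.42 FPKM in the control library, a ratio of 1.52 (1.43 to 1.61). TP53BP1 (ENSG00000067369, chromosome 15, 43403061 to 43510614), which holds back resection, was at 1.23 FPKM in the knockdown and 1.98 FPKM in the control library, a difference of -0.42 and a ratio of 0.620 (0.571 to 0.673). Of its exon bases 28.7% overlap TUBGCP4 on the opposite strand, which was higher in the knockdown library (0.781 FPKM, against 0.306 FPKM in the control). The window of TP53BP1 (chr15:43510641-43510890, minus strand), shown with XRCC3 and PARP2 as that of a lower member, holds 1 CCAAT and 2 GC boxes.
TP53BP1: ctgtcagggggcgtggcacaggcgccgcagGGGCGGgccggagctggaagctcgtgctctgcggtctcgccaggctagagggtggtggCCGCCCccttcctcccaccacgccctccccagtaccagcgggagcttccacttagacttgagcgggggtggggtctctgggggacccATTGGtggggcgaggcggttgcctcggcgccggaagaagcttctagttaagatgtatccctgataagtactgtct

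The Ku genes were among the most abundant of the set, and all 5 end-joining genes had ratios between 0.883 and 1.24. XRCC6 (ENSG00000196419, chromosome 22, 41621119 to 41664048) was at 162 FPKM in the knockdown and 134 FPKM in the control library, a ratio of 1.21 (1.19 to 1.23). XRCC5 (ENSG00000079246, chromosome 2, 216107464 to 216206303), the Ku80 partner, was at 20.9 FPKM in the knockdown and 18.2 FPKM in the control library, a ratio of 1.15 (1.11 to 1.19). PRKDC (ENSG00000253729), the kinase that Ku recruits, was at 4.18 FPKM in the knockdown and 3.38 FPKM in the control library, a ratio of 1.24 (1.18 to 1.298). All 3 ratios lie near the median of all genes, 1.21, and all 3 turn below 1 with the median ratio of expressed genes set to 1 and with the upper quartile set equal, and XRCC5 also with TMM factors, so no direction can be given for them. The level of XRCC6 relative to XRCC5 was 7.75 in the knockdown library, against 7.36 in the control, although the proteins form a dimer. The ligation genes were weak: LIG4 had 32 counts in the knockdown library against 26 counts in the control, a ratio of 0.940 (0.543 to 1.64), and XRCC4, its scaffold, had 111 counts in the knockdown library against 96 counts in the control, a ratio of 0.883 (0.666 to 1.17). Both intervals hold 1. None of the 5 end-joining genes had a ratio past 2 or 0.5, where 28.9% of all genes with at least 20 counts were at 2 or more and 15.9% at 0.5 or less. With 5 genes, that count says little about the group.

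The genes of strand-break signalling and of the alternative end-joining route split. PARP1, which marks breaks with poly(ADP-ribose), was at 32.4 FPKM in the knockdown and 21.5 FPKM in the control library, a ratio of 1.51 (1.47 to 1.55). PARP2 (ENSG00000129484, chromosome 14, 20343582 to 20357905), its paralogue, was at 2.82 FPKM in the knockdown and 4.82 FPKM in the control library, a difference of -0.61 and a ratio of 0.584 (0.531 to 0.643). PARP1 was thus at 11.5 times the level of PARP2 in the knockdown library, against 4.46 times in the control. XRCC1, the scaffold of single-strand break repair, was at 9.55 FPKM in the knockdown and 4.92 FPKM in the control library, a ratio of 1.94 (1.79 to 2.10). LIG3, the ligase it carries, was at 2.09 FPKM in the knockdown and 1.62 FPKM in the control library, a ratio of 1.29 (1.19 to 1.39) that turns below 1 with the median ratio set to 1 and with the upper quartile set equal. LIG3 shares 29.1% of its exon bases with RFFL on the opposite strand.
PARP2 was the expressed member with the lowest difference, and its window (chr14:20343385-20343634, plus strand), the third of those lower members, holds no CCAAT and 1 GC box.
PARP2: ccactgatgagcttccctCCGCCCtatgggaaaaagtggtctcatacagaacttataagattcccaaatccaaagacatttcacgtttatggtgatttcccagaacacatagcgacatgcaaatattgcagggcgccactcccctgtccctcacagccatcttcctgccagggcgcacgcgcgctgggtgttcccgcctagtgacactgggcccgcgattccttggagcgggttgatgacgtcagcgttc

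Over the 19 expressed members the median difference in log2(FPKM + 1) was 0.51, and over all 10143 expressed genes it was 0.30. At least 2-fold higher were 5 members (FANCG, FANCF, FANCE, ATRIP and RAD54L), 26.3% of the 19 against 20.9% of all expressed genes. None was at least 2-fold lower, where 6.83% of all expressed genes were. At a difference of 0.5 or more were 10 members, against 40.8% of all expressed genes, and at -0.5 or less was PARP2 alone, against 16.3%. By role, the median was 1.36 for the 4 expressed Fanconi core genes, 0.35 for 4 strand-exchange genes and 0.24 for 3 end-joining genes. It was 0.40 for 4 genes of strand-break and alternative end joining, 0.93 for 2 signalling genes (ATRIP and CHEK2) and 0.04 for 2 mediators. The other roles had no expressed member. The median of the members exceeded that of all genes by 0.21, and by 0.19 to 0.24 under the alternatives tried. Rescaling the libraries moves both medians together, so a steady gap under the other scalings says little about its reliability. ATRIP and FANCF passed the filter only through the knockdown library. Both are in the members' median, in the 5 called 2-fold higher and in the 10 at 0.5 or more. Each is also in the median of its role, FANCF in 1.36 and ATRIP in 0.93. These counts and medians therefore rest in part on the filter and are descriptions only.

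Members whose mRNA is known to peak around G1/S or in S phase were also described as a group: BRCA1, BRCA2, BARD1, BRIP1, BLM, CHEK1, RAD54L, FANCA, FANCD2 and FANCI. Of the 9 with at least 20 counts, 6 had a CPM ratio of 2 or more and 0 had a ratio of 0.5 or less, with a median ratio of 2.82. Over all genes of that depth the shares were 28.9% and 15.9%. Of the other 33 members, 11 (33.3%) had a ratio of 2 or more and 2 had a ratio of 0.5 or less, with a median ratio of 1.51. The difference between the 2 sets was not tested. In the same libraries, 16 of 18 G1/S replication genes had a ratio of 2 or more (median ratio 3.06), and 1 of 8 G2/M genes did (median ratio 1.20). How far a different share of cells in S phase takes part in the values of the repair genes was not tested.

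**Figure D3:**
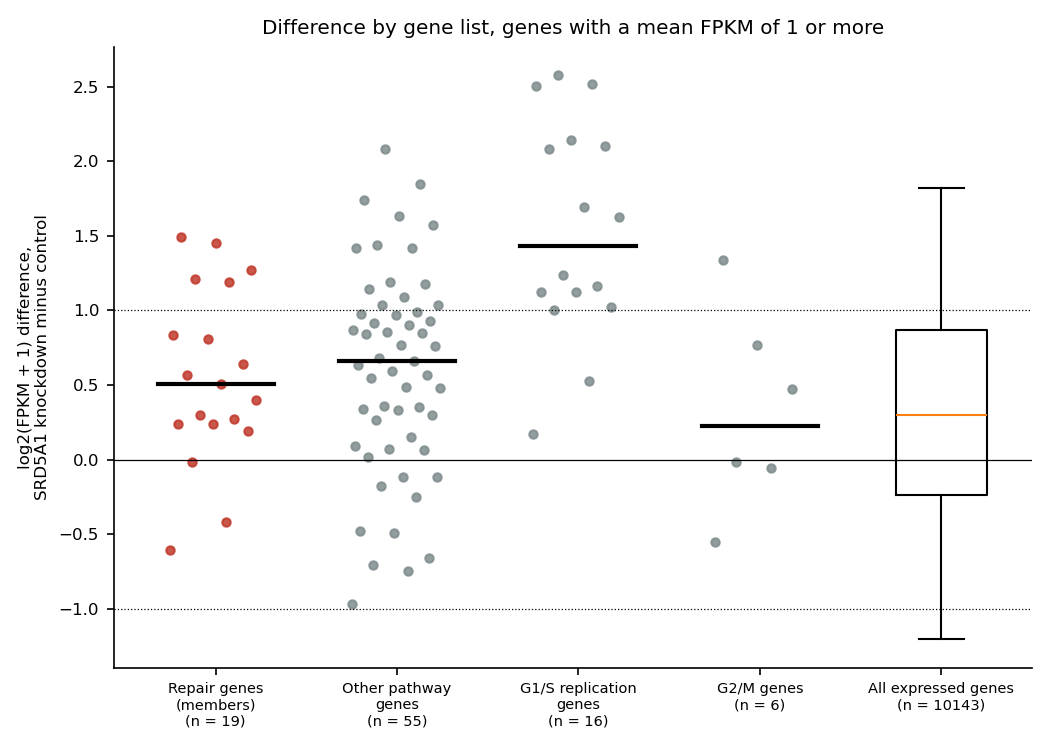
Differences in log2(FPKM + 1), SRD5A1 knockdown minus control, of the expressed genes of 4 lists, with each list's median as a bar, and of all 10143 expressed genes as a box (quartiles) with whiskers at the 5th and 95th percentiles. The medians are 0.51 for the repair genes, 0.66 for the other pathway genes, 1.43 for the G1/S genes, 0.23 for the G2/M genes and 0.30 for all genes.

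The wider pathway, 91 further genes of recombination, end joining, cross-link repair and checkpoint signalling of which 89 symbols were in the table, was described in the same way. Of its 55 expressed genes, 14 (25.5%) were higher by 2-fold or more in the knockdown library and 0 lower by as much, against 20.9% and 6.83% of all expressed genes, and the median difference was 0.66. The following are named at a mean of 2 FPKM or more. H2AFX, the histone variant phosphorylated at breaks, was at 83.8 FPKM in the knockdown and 22.6 FPKM in the control library, a difference of 1.85. FAAP100, a Fanconi core partner, was at 14.8 FPKM in the knockdown and 3.72 FPKM in the control library, a difference of 1.74. Both were higher in the knockdown library. The lowest at that level were RAD9A and RAD1, subunits of the 9-1-1 checkpoint clamp, and UIMC1, a ubiquitin reader of the BRCA1-A complex. RAD9A was at 4.89 FPKM in the knockdown and 8.90 FPKM in the control library, a difference of -0.75. UIMC1 was at 1.56 FPKM in the knockdown and 3.18 FPKM in the control library (-0.71), and RAD1 had 666 counts in the knockdown library against 998 counts in the control (-0.66). In the deposited Gene Ontology annotation, 12 members carry the term for homologous recombination repair, 5 that for non-homologous end joining and 13 that for interstrand cross-link repair. The other expressed genes with these terms had median differences of 0.90 (29 genes), 0.14 (26 genes) and 0.72 (20 genes).

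The members' levels went with base composition. Across the 43 genes, GC content of the principal transcript and mean level had a Spearman rho of 0.833 and a Pearson r of 0.712 (level as log2 of FPKM + 0.01), against a rho of 0.302 over 15226 protein-coding genes with a level above 0. None of the 11 members with a GC content below 40% was expressed, whereas 25.6% of 2141 protein-coding genes of that range were. Of the 10 members at 50% or more, 9 were expressed, against 63.5% of 8566 protein-coding genes, and the 10 had mean levels from 0.972 to 148 FPKM. The weakest of all, BRCA2, has a GC content of 36.3% and a transcript of 11986 bases, and ATM has 39.1% and 13147 bases. Longer transcripts had lower levels (rho of -0.446), although PRKDC, with 13509 bases and 45.3% GC, was at 3.78 FPKM on average. The ratio between the libraries followed GC content less, with a rho of 0.236 over 42 members and 0.153 over 13373 protein-coding genes. The median CPM ratio of protein-coding genes was still 0.929 below 40% GC, against 1.41 at 50% or more. Members had a median ratio of 0.947 below 40%, 2.82 from 40 to 45%, 1.42 from 45 to 50% and 2.45 at 50% or more. Below 40% lay 2 member ratios of 2 or more and both of those at 0.5 or less, ATM and FANCM. These values are given as descriptions, since all genes share the same 2 libraries.

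**Figure D4:**
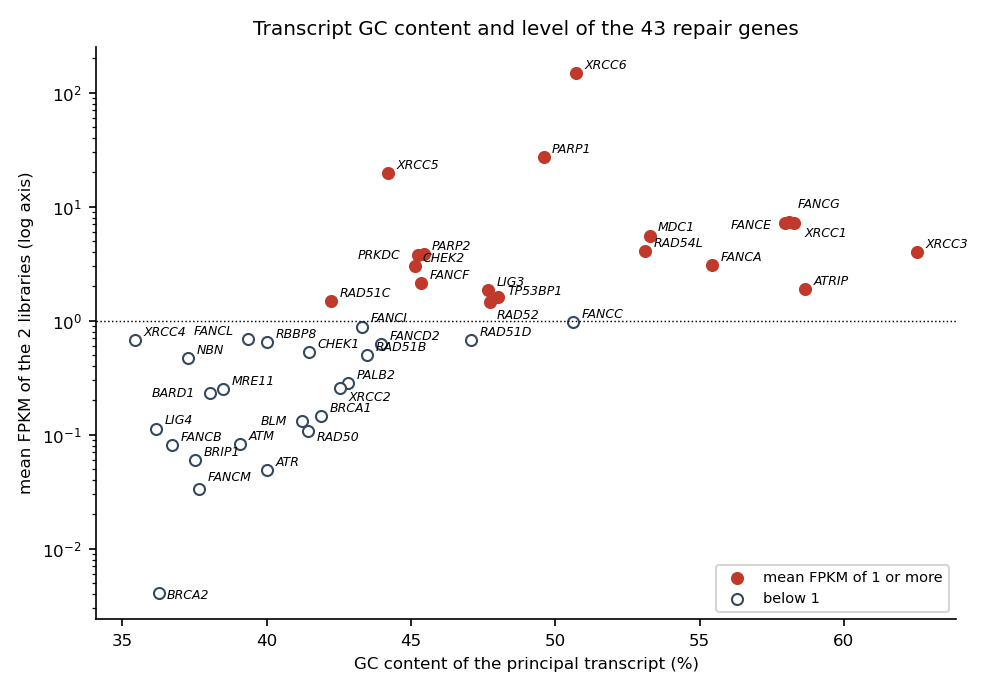
Mean FPKM of both libraries (log axis) against the GC content of the principal transcript for the 43 repair genes, with genes at 1 FPKM or more filled. No filled point lies below 40% GC, and XRCC6, at 50.7% GC, is the highest at 148 FPKM.

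The members also share a kind of position. In GENCODE 29, 26 of the 43 (60.5%) have a gene on the opposite strand that starts within 1000 bases of their own start, as do 24.1% of 17037 protein-coding genes in the table. In 5 such pairs both genes were expressed. Only these are described, and they do not stand for the pairs with a gene below that level. PRKDC and MCM4, a subunit of the replicative helicase, start 2 bases apart, yet PRKDC had a ratio of 1.24 while MCM4 was at 11.0 FPKM in the knockdown and 1.79 FPKM in the control library, a ratio of 6.08 (5.60 to 6.62). XRCC6 and DESI1 start 23 bases apart, and DESI1 was at 14.1 FPKM in the knockdown and 3.21 FPKM in the control library, a ratio of 4.40 (4.08 to 4.75) against 1.21 for XRCC6. In these 2 pairs the partners differed several-fold more than the repair gene. The partners of the other 3 were closer to their repair gene. CHEK2 and HSCB had ratios of 1.81 and 1.61 (1.34 to 1.95), XRCC3 and ZFYVE21 0.986 and 1.12 (1.06 to 1.19), and PARP2 and RPPH1, an RNA of RNase P, 0.584 and 0.491 (0.291 to 0.815). HSCB overlaps 6.70% of the exon bases of CHEK2.

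RefSeq windows were found for 39 of the 43 members; FANCI, NBN, PRKDC and XRCC5 are named only. The 250 bases before the start had a median GC content of 63.6% over these members and 58% over all windows, with a median of 21 and 11 CpG dinucleotides. On either strand, the GC box GGGCGG was in at least 1 window of 29 members (74.4%) and of 46.2% of 27305 genes, and CCAAT in 19 members (48.7%) and 37.0% of genes. Those genes were not filtered by gene type, and the members' windows were richer in GC, so the shares are descriptions only. CCAAT and the GC box overlapped in 0 of the members' windows. The E2F-like octamers TTTCGCGC, TTTGGCGC, TTTCCCGC and TTTGCCGC, searched on both strands, were in FANCA and FANCC (5.13%) and in 3.40% of genes. TTTGAA was in 5 members (12.8%) and 16.1% of genes, and CACGTG in BRCA2 and LIG3 and in 7.73% of genes. The members with CCAAT had a median CPM ratio of 1.94 and those without it 1.66, with ranges of 0.118 to 8.73 and 0.584 to 9.36 that overlap almost throughout. No match says only that these letters are not in the window.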

How the data were processed

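RNA of 1 SRD5A1 knockdown and 1 control library of HCT116 was sequenced. Per the labels' protocols, poly(A) RNA was selected from Trizol extracts, fragmented and sequenced as paired ends. Per the submitters' processing notes, the tools named are Bowtie 0.12.2, HISAT2 2.0 and StringTie 1.3.0 without their roles, and the genome build named is mm8, of the mouse. The identifiers in the table are human Ensembl ones, and 21934 of 31659 rows found in GENCODE release 29 (69.3%) have the same span there (26 of the 43 members), so positions are on GRCh38. The sources used here do not give the counting program or whether strand was used. The authors deposited FPKM values and raw counts per gene, with 1 column per library.

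Rows were summed by symbol. Differences, the main measure, were taken in log2(FPKM + 1) as knockdown minus control over symbols whose mean FPKM reached 1; the pseudocount of 1 understates differences of weak genes. From the counts, CPM ratios with exact Clopper-Pearson 95% intervals were computed over genes with at least 20 counts in total. Intervals and the floor of 3 counts (0.0548 CPM in the knockdown, 0.0717 in the control library) cover counting error only: the reads carry no molecular identifiers and may repeat a molecule. From GENCODE 29 came transcript length and GC content, of the principal transcript, and overlaps, over all annotated exons. Python 3.11.15, pandas 2.3.3, scipy 1.17.1 and edgeR 4.0.16 (TMM factors only) were used, and the steps were tested on simulated data.

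The members, role groups and other lists were chosen with earlier results of these data known. Full statistics were given for the 4 expressed members with the largest differences in each direction, for members at least 2-fold apart, and for BRCA1, BRCA2, ATM, ATR, FANCD2, XRCC5, XRCC6 and PRKDC; of the other pathway genes, the 3 with the largest differences each way at a mean of 2 FPKM or more were chosen, and an item that this rule takes in is not reported here.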

Additional observations from a re-analysis of the deposited data

How the results depend on the processing

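The scaling of the libraries moves the median difference of all expressed genes: 0.30 as deposited, -0.0014 with the median ratio set to 1, -0.016 with the upper quartile set equal and 0.096 with TMM factors. The members' median of 0.51 became 0.19 with the median ratio set to 1 and 0.17 with the upper quartile set equal, and that of the other pathway genes 0.33 and 0.32, and 0.31 with no filter on low values. The median of the end-joining genes reversed to -0.11 and -0.12 under these 2 scalings, and was 0.015 with TMM factors, 0.17 with mitochondrially encoded genes left out of the total, and 0.27 both with a pseudocount of 0.1 and with CPM. The Fanconi core median was 1.58 with a pseudocount of 0.1, 1.54 with CPM and 0.76 with no filter. Members at least 2-fold higher numbered 2 instead of 5, and those higher by 0.5 or more 6 and 5 instead of 10, with these 2 scalings, while the share of all expressed genes at least 2-fold higher was 12.3% and 12.0% and that higher by 0.5 or more 27.2% and 26.6%. Where only the 7 members with a mean FPKM of 5 or more were kept, they numbered 2 and 5, where 22.4% and 42.1% of all genes at that level were called. Members lower by 0.5 or more numbered 2 instead of 1 with a pseudocount of 0.1, CPM, TMM factors, either of these 2 scalings or mitochondrially encoded genes left out, and 0 among those with a mean FPKM of 5 or more. The share of all expressed genes lower by as much was 16.3% as deposited. It ran from 17.7% (CPM) to 26.7% (upper quartile set equal) where members numbered 2, and was 15.7% among genes at 5 FPKM or more. Members with a CPM ratio of 0.5 or less numbered 5 instead of 2 with the median ratio set to 1 and with the upper quartile set equal, 4 with TMM factors (22.6%, 23.1% and 20.2% of all genes under these 3), and 1 with at least 100 counts (12.1% of genes) or with the trend on GC content and length removed (15.2%). The counts of members by CPM ratio, all their alternatives and the trend were added after seeing the data. No paired analysis was possible because each group has 1 library. Depth limits the sizes for the BRCA genes, BLM, RAD50, XRCC2 and FANCM, whose intervals are wide, and the spread between cultures is unknown.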
